A study of Rattus norvegicus with 9 samples.

Results

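Livers of rats treated with an agent labelled SCL, which stands for Smilax china L., were compared with livers of high-fat diet rats by RNA sequencing. The comparison rested on 6 of the study's 9 libraries, 3 SCL-treated and 3 high-fat diet, chosen by the columns of raw counts that carry their names. Its table held 15819 genes, of which 15565 were also in the table with the normal diet libraries, and 12041 had enough reads to be tested. All rats were male and of the strain labelled SD. The high-fat diet rats were a fatty liver model fed for 8 weeks, and the other 3 libraries came from rats on a normal diet, labelled wt. The labels call the tissue of both compared groups fatty liver and give neither a dose nor a length of treatment nor the diet of the SCL-treated rats. The text on the study's design has an SCS group in place of SCL, and both names were taken here as the same group. Nothing in the labels ties each library to its own rat, so a p-value here reflects the scatter among these libraries and part of that scatter may be technical.

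The liver makes fatty acids from sugar, packs them as triglyceride into droplets and lipoproteins, burns them in mitochondria and peroxisomes, and turns cholesterol into bile acids. In fatty liver the droplets build up in hepatocytes, and inflammation and scarring can follow. Smilax china is a climbing shrub whose rhizome is used in traditional medicine. The comparison asks which liver genes differ between treated rats and rats with diet-induced fatty liver.

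No gene passed the test. Of the 12041 genes tested with edgeR's quasi-likelihood test, 0 (0% of them) had a Benjamini-Hochberg adjusted p under 0.05, and the lowest adjusted p was 0.9997. At an unadjusted p under 0.05, 74 genes were higher (0.615% of those tested) and 161 were lower (1.34%) in SCL-treated livers, 235 in all (1.95%). Scaled by library totals alone, the same counts were 25 (0.208%) and 295 (2.45%). In 576 genes (4.78%) the 3 libraries of one group all lay beyond the 3 of the other, 284 with SCL higher (2.36%) and 292 with SCL lower (2.43%). DESeq2 called 1 gene of 12019 (0.00832%), Eml5, and had 112 genes higher (0.932%) and 225 lower (1.87%) at an unadjusted p under 0.05. With limma-voom and library quality weights 0 genes (0%) were called, 384 were higher (3.19%) and 542 were lower (4.50%).

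The libraries of a group differed from each other as much as libraries of different groups did. They held 12414001 to 15521648 reads, and 13306 to 14412 genes had at least 1 read. Transcripts of the mitochondrial genome took 10.97%, 49.0% and 7.04% of the reads of SCL-treated replicates 1, 2 and 3. Among high-fat diet replicates the shares were 4.90%, 18.8% and 44.1%. Each group therefore had 1 library with over 40% of its reads on mitochondrial transcripts, and the group means were 22.3% ± 23.2 (SD, n = 3) and 22.6% ± 19.9 (SD, n = 3). The difference was -0.28 percentage points (two-sided exact permutation test, p = 1, where 3 against 3 allow no p below 0.1), and the normal diet libraries had 3.85% to 11.2%. Genes longer than 4000 bases took 12.1%, 16.7% and 11.5% of the non-mitochondrial reads of the SCL-treated replicates and 18.1%, 12.5% and 15.2% of those of the high-fat diet. Hepatocyte markers were abundant in every library, with a summed level of 81470 to 250700 CPM (read counts scaled to a common library size, with TMM factors).

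**Figure D1:**
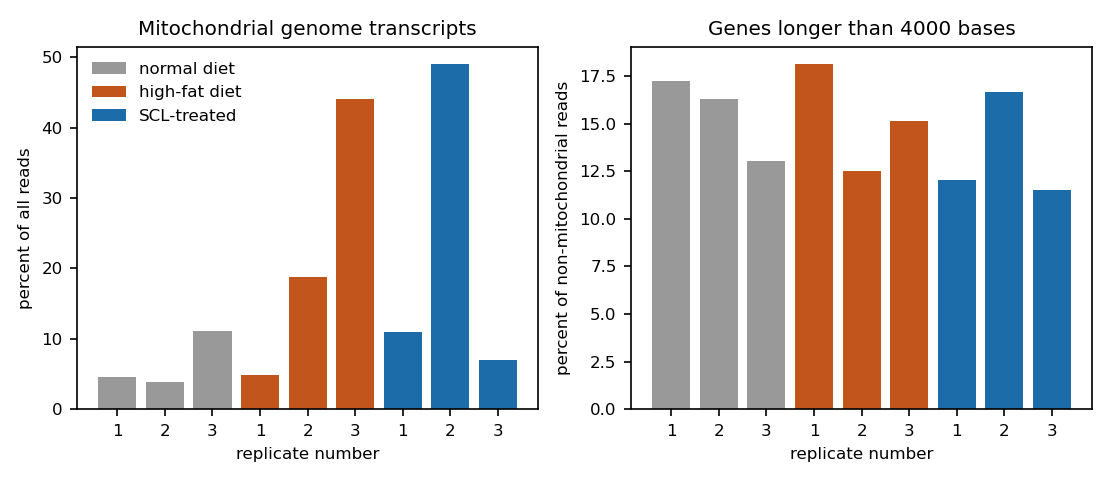
Bars give, for each of the 9 libraries by group and replicate number, the percent of all reads on mitochondrial genome transcripts (left) and the percent of non-mitochondrial reads on genes longer than 4000 bases (right). SCL-treated replicate 2 (49.0%) and high-fat diet replicate 3 (44.1%) stand above the other libraries on the left, and high-fat diet replicate 1 is the highest on the right (18.1%).

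Over non-mitochondrial genes, the median absolute log2 difference between 2 SCL-treated libraries was 0.64 for replicates 1 and 2, 0.33 for 1 and 3, and 0.69 for 2 and 3. Within the high-fat diet group it was 0.63, 0.75 and 0.45 for the same pairs. Between the groups it ran from 0.37 to 0.76. The high-fat diet library nearest to SCL-treated replicate 2 was replicate 3 (0.44), and SCL-treated replicate 1 was nearest to normal diet replicate 3 (0.27). High-fat diet replicate 1 was nearer to normal diet replicate 1 (0.25) than to the other libraries of its own group. So the nearest neighbour of these libraries was not one of their own group. The title of high-fat diet replicate 1 begins with fb-M2, and those of the other high-fat diet libraries begin with fb-M. The part of this difference in the values was not tested.

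**Figure D2:**
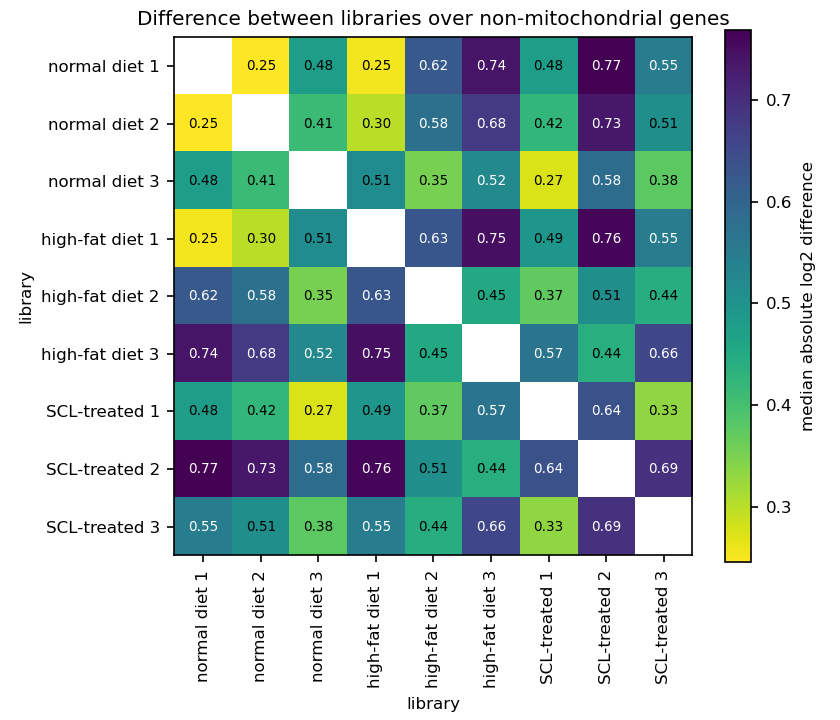
Each square gives the median absolute log2 difference between 2 of the 9 libraries over non-mitochondrial genes, from yellow (small) to dark purple (large). Pairs within the SCL-treated group (0.33 to 0.69) and within the high-fat diet group (0.45 to 0.75) cover the same range as pairs between them (0.37 to 0.76).

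The spread set what could be detected. The median standard error of a log2 fold change, SCL-treated over high-fat diet, was 0.41 over the 12041 genes. The 95% confidence interval lay within 1 log2 unit of 0 for 4078 genes (33.9%) and within 2 units for 9991 (83.0%). For the remaining genes the interval reached past 2 units on at least one side.

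The genes with the smallest unadjusted p-values among those with non-overlapping groups and a mean of at least 1 log2 CPM are given next, 10 in each direction. They were picked for their difference, so their values are a description, and the choice of non-overlapping groups also fixes their direction when a library is left out.

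Serpina7 encodes thyroxine-binding globulin, a plasma carrier of thyroid hormone made by the liver. It had 68.0, 36.3 and 63.6 CPM in SCL-treated replicates 1, 2 and 3, whereas high-fat diet livers had 11.4, 19.6 and 23.7 CPM. The lowest treated library was above the highest high-fat diet library, and the normal diet libraries had 17.8, 15.96 and 36.6 CPM. The log2 fold change was 1.62 (SE 0.41, edgeR unadjusted p = 0.00249), a 3.07-fold ratio of the means.

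Gstt3, a theta-class glutathione S-transferase that conjugates foreign compounds, stood at 263, 220 and 440 CPM with SCL and at 112.5, 58.6 and 91.7 CPM on the high-fat diet. All treated libraries also exceeded the normal diet libraries, which had 31.8, 47.5 and 123 CPM. Its log2 fold change was 1.81 (SE 0.51, unadjusted p = 0.00471).

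Acsm5, a mitochondrial acyl-CoA synthetase for medium-chain fatty acids, had 261, 508 and 113 CPM in the treated livers against 75.0, 66.9 and 64.1 CPM in high-fat diet livers. The latter lay close together, and the treated ones spread widely, with the highest value in replicate 2. The log2 fold change of 2.1 (SE 0.63, unadjusted p = 0.00672) came to 1.39 (unadjusted p = 0.0883) without the 2 libraries over 40% mitochondrial.

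Oat, the ornithine aminotransferase of pericentral hepatocytes, was even within groups. Treated replicates gave 394, 369 and 327 CPM, high-fat diet replicates 218.5, 220.7 and 161 CPM, and normal diet replicates 212, 220 and 220 CPM. The treated libraries were thus above both other groups, with a log2 fold change of 0.86 (SE 0.26, unadjusted p = 0.00727).

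Hsd17b2, which oxidises estradiol and testosterone to less active steroids, had 103, 133 and 193 CPM with SCL and 84.5, 84.7 and 43.0 CPM on the high-fat diet (log2 fold change 1.01, SE 0.34). Fdxr, the ferredoxin reductase that passes electrons to mitochondrial cytochromes P450, had 24.4, 27.4 and 36.2 CPM against 16.4, 20.02 and 17.2 CPM, a log2 fold change of 0.71 (SE 0.25). Echdc1, an ethylmalonyl-CoA decarboxylase that clears a side product of fatty acid synthesis, had 12.1, 15.2 and 10.9 CPM against 7.89, 5.58 and 7.12 CPM. Normal diet livers had 14.99, 15.55 and 11.3 CPM of Echdc1, which overlapped the treated ones.

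Stk19, Krt2 and Gfra3 were at low levels. Gfra3, a co-receptor for the nerve growth ligand artemin, had 6.87, 4.08 and 6.41 CPM with SCL, 3.40, 3.06 and 2.52 CPM on the high-fat diet and 7.19, 6.68 and 7.74 CPM on the normal diet. Stk19 had 2.91 to 4.02 CPM in the treated libraries and 0.61 to 1.73 CPM on the high-fat diet. Krt2, a keratin known from epidermis, had 2.11 to 5.43 CPM against 0.78 to 1.73 CPM, and its log2 fold change of 1.56 came to 0.92 (unadjusted p = 0.123) without the 2 libraries over 40% mitochondrial.

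Eml5, a microtubule-binding protein of the EMAP family, had the smallest p-value of all genes. Its high-fat diet libraries were nearly level at 13.96, 15.23 and 15.12 CPM (267, 194 and 174 reads), and the treated ones had 3.13, 6.02 and 3.598 CPM (46, 62 and 41 reads). Normal diet livers lay between the groups with 9.08, 7.66 and 6.58 CPM. The log2 fold change was -1.80 (SE 0.32, edgeR unadjusted p = 1.86e-04, adjusted p = 0.9997). DESeq2 gave an adjusted p of 0.00217 and limma-voom one of 0.0996, and across the 19 alternatives the log2 fold change lay between -2.13 and -1.62. At 6540 bases, Eml5 is one of the genes longer than 4000 bases, whose share of reads differed between libraries. Of the 2521 tested genes of that length, 60 (2.38%) were lower and 7 (0.278%) higher at an unadjusted p under 0.05, against 1.34% and 0.615% of all genes tested. Among the 6 compared libraries the share was highest in high-fat diet replicate 1 and next highest in SCL-treated replicate 2, and its part in the Eml5 values was not tested.

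Ccnd1 encodes cyclin D1, which drives entry into the cell cycle. High-fat diet replicates had 80.5, 75.0 and 56.6 CPM and treated replicates 37.0, 31.8 and 38.4 CPM, and normal diet livers had 40.2, 18.5 and 28.3 CPM. The compared groups did not overlap, and the treated libraries had an SD of 3.48 CPM (n = 3). The log2 fold change was -0.98 (SE 0.31, unadjusted p = 0.00853).

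Fgf21, a liver hormone released in fasting and under metabolic stress, had 10.2, 6.02 and 10 CPM with SCL and 17.9, 11.5 and 50.7 CPM on the high-fat diet. The normal diet libraries had 12.7, 12.96 and 9.47 CPM, and high-fat diet replicate 3 stood apart from all others. With it the log2 fold change was -1.61 (SE 0.50, unadjusted p = 0.00836), without it -0.76 (unadjusted p = 0.0604), and without the 2 libraries over 40% mitochondrial -0.55 (unadjusted p = 0.124).

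Adora2b, the low-affinity adenosine receptor A2B, rested on few reads. It had 8, 13 and 6 reads in the treated libraries and 73, 72 and 20 in the high-fat diet libraries, or 0.54, 1.26 and 0.53 CPM against 3.82, 5.65 and 1.74 CPM. Its log2 fold change of -2.27 (SE 0.61, unadjusted p = 0.0036) was the largest in size of the 20. Slc17a9, which loads ATP into vesicles for release, had 11.3, 12.5 and 13.2 CPM with SCL and 19.97, 26.3 and 23.7 CPM on the high-fat diet (log2 fold change -0.92, SE 0.28).

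Tead1, the DNA-binding partner of the growth regulator YAP, had 0.82, 0.97 and 0.97 CPM in the treated livers, or 12, 10 and 11 reads, against 4.91, 2.04 and 2.78 CPM. Pacs2, a sorting protein at contacts of the endoplasmic reticulum with mitochondria, had 5.44, 5.63 and 2.72 CPM against 16.3, 9.82 and 12.2 CPM. The remaining members of the lower set were Rbm25l1, Zfp318 and the semaphorin receptor gene Plxna1, with log2 fold changes of -1.66, -0.99 and -1.15. Rbm25l1 had 34.2 CPM in high-fat diet replicate 3 and 12.5 to 15.8 CPM in the other two.

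**Figure D3:**
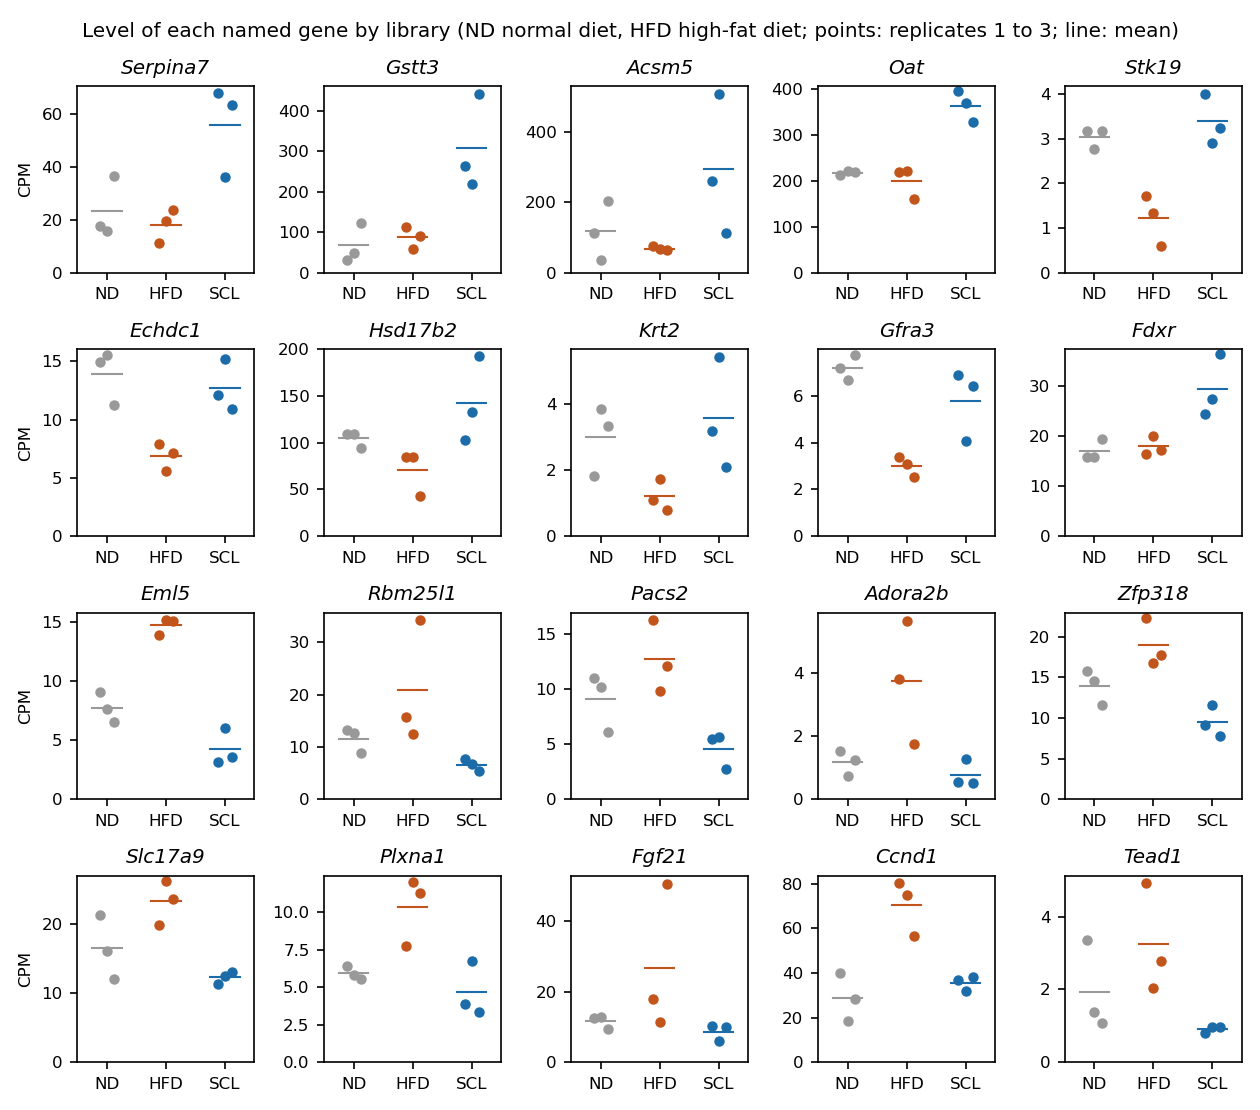
CPM of the 20 genes in each library of the normal diet (ND), high-fat diet (HFD) and SCL-treated groups, with points for replicates 1 to 3 and a line at the mean. In each panel the 3 SCL-treated points lie all above (upper 2 rows) or all below (lower 2 rows) the 3 high-fat diet points, which is how the genes were chosen, and for Fgf21 the high-fat diet mean is drawn up by 1 library at 50.7 CPM.

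**Figure D4:**
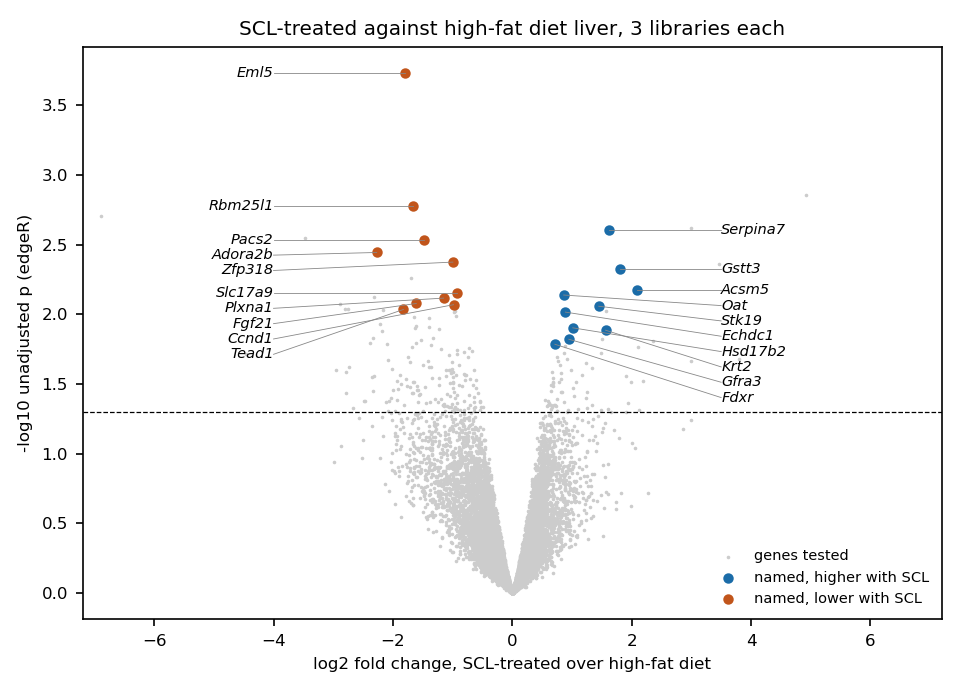
Log2 fold change of SCL-treated over high-fat diet against -log10 of the unadjusted p-value from edgeR, one point per tested gene, with the 20 named genes in blue and orange and the dashed line at an unadjusted p of 0.05. Above the line lie 74 genes on the right and 161 on the left, and no gene passed after adjustment.

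The other genes were read in lists by role. In each list the number of genes on either side of 0 and the median log2 fold change stand beside those of all genes tested, of which 5619 were above 0 and 6422 below, with a median of -0.03. No gene of any list was called. List medians were also taken in up to 17 alternatives, which are those used for single genes without DESeq2 and limma-voom. Scaled by library totals alone, which put the median of all genes at -0.19, 10 of the 34 list medians turned from positive to negative. These were lipoproteins (-0.02), bile acids (-0.08), NRF2 targets (-0.05), the unfolded protein and stress responses (-0.13), inflammatory genes (-0.10), interferon response (-0.05), cell cycle (-0.14), mitochondrial transcripts (-0.05), hepatocyte markers (-0.07) and pericentral genes (-0.04). Leaving out 1 library changed the sign of 24 of the 34 medians at least once. This happened in 7, 4 and 9 lists without high-fat diet replicates 1, 2 and 3, in 4, 5 and 9 without SCL-treated replicates 1, 2 and 3, and in 0 without any one normal diet library.

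Fatty acid synthesis and desaturation had the lowest median of the metabolic lists, -0.46 over 15 tested genes, with 4 above 0 and 11 below. Scd, the stearoyl-CoA desaturase that makes monounsaturated fat, was at 196, 67.9 and 374 CPM in the treated replicates and at 1586, 983 and 52.1 CPM on the high-fat diet. The first and second high-fat diet libraries exceeded all treated ones, and the third was below all of them. Its log2 fold change was -2.04 (SE 0.93, 95% interval -4.09 to 0.01, unadjusted p = 0.0511), and over 19 alternatives it lay between -2.74 and -0.89, with unadjusted p-values from 0.00119 to 0.323. It came to -1.28 (unadjusted p = 0.183) without high-fat diet replicate 1, the highest library, and to -2.60 (unadjusted p = 0.00163) without replicate 3, the lowest. The smallest of these p-values came without the 2 libraries over 40% mitochondrial (log2 fold change -2.18) and the largest with limma-voom.

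Srebf1 encodes the transcription factor that turns on fatty acid synthesis. It had 100.8, 104.6 and 327.8 CPM with SCL and 551.5, 168.7 and 38.6 CPM on the high-fat diet (log2 fold change -0.51, SE 0.82, unadjusted p = 0.549). High-fat diet replicate 1 was its highest library and replicate 3 its lowest, and without replicate 1 the log2 fold change of Srebf1 was 0.78. Fasn, the fatty acid synthase, had 14.3, 25.3 and 34.0 CPM against 52.5, 35.7 and 12.5 CPM. Acaca, the acetyl-CoA carboxylase that commits carbon to fat, had 34.0 CPM in high-fat diet replicate 1 and 3.301 to 8.15 CPM in the other 5 libraries compared. The summed level of the list was 742, 531 and 1376 CPM with SCL and 3177, 1608 and 406 CPM on the high-fat diet, so the groups overlapped. Of its 15 tested genes 7 were longer than 4000 bases. Its median lay between -0.76 and 0.03 over 17 alternatives, and it was 0.03, with 10 of 15 genes above 0, without high-fat diet replicate 1. With limma-voom, which is not among these 17, the median was -0.002, with 7 genes above 0 and 8 below.

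Triglyceride synthesis was close to 0, with 4 genes above, 6 below and a median of -0.12. Dgat2, which adds the last fatty acid to triglyceride, had a log2 fold change of 0.31 (SE 0.31, unadjusted p = 0.337). In the list of lipid droplets, fatty acid uptake and lipolysis, 8 of 17 genes were above 0 and 9 below, and 1 in each direction had an unadjusted p under 0.05. Plin2, the main coat protein of liver lipid droplets, had 93.3, 81.7 and 107 CPM with SCL and 283.5, 101.5 and 184 CPM on the high-fat diet. One high-fat diet library lay within the treated range, and the log2 fold change was -1.01 (SE 0.46, unadjusted p = 0.049). Without high-fat diet replicate 1, the highest library, Plin2 had -0.60 (unadjusted p = 0.209), and with limma-voom -0.50 (unadjusted p = 0.233).

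Slc27a5, which activates bile acids and long-chain fatty acids with coenzyme A, differed in the other direction, with even replicates. It had 512, 481 and 523 CPM with SCL and 300, 252 and 297 CPM on the high-fat diet. The log2 fold change was 0.84 (SE 0.35, unadjusted p = 0.0358), and the normal diet livers had 1022, 900 and 428 CPM. Fabp1, the liver fatty acid binding protein, had -0.38 (SE 0.49), Slc27a2, another fatty acid activating enzyme, 0.19 (SE 0.38), and the fatty acid receptor Cd36 0.49 (SE 0.54) on the log2 fold scale.

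Fatty acid oxidation and the targets of PPAR alpha, the receptor that turns on fat burning, had 9 genes above 0, 13 below and a median of -0.07. Ppara itself had 4.49, 9.31 and 3.598 CPM with SCL and 30.6, 3.85 and 10.7 CPM on the high-fat diet, where replicate 1 stood apart. Cpt1a, which admits fatty acids to mitochondria, had 257, 308 and 184 CPM against 498, 181 and 419 CPM. The fatty acid hydroxylase gene Cyp4a2 had a log2 fold change of 0.86 (95% interval -0.33 to 2.05).

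Cholesterol synthesis had 12 genes above 0 and 8 below, a median of 0.22, and no gene with an unadjusted p under 0.05. Without SCL-treated replicate 3 the median was -0.02, with 9 genes above 0 and 11 below. Hmgcs1 and Nsdhl, earlier and later enzymes of the pathway, had log2 fold changes of -0.50 (SE 0.37) and -0.16 (SE 0.27). The summed level of the 20 genes was 979, 901 and 1071 CPM with SCL, 1319, 1113 and 845 CPM on the high-fat diet, and 3333, 2661 and 2033 CPM on the normal diet. All 6 compared libraries were thus below all normal diet libraries. Genes of sterol sensing and LDL uptake had 13 of 15 values above 0 and a median of 0.20, which kept its sign in 17 alternatives (0.01 to 0.44).

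Lipoprotein genes had a median of 0.11 (11 above 0, 8 below) and bile acid genes one of 0.09 (8 above, 8 below). Apoe and Apoc3, carriers and regulators of lipoprotein triglyceride, had log2 fold changes of 0.40 (SE 0.56) and 0.74 (SE 0.56). Cyp7a1, the rate-limiting enzyme of classical bile acid synthesis, had 41.5, 269 and 142 CPM with SCL and 197, 79.0 and 69.0 CPM on the high-fat diet. Its values ranged widely within both groups, and the log2 fold change was 0.39 (95% interval -0.94 to 1.72). Cyp27a1, which starts the alternative bile acid pathway and was picked here after its values were seen, was even within groups at 429, 499 and 511 CPM against 332, 326 and 323 CPM, a log2 fold change of 0.55 (SE 0.25, unadjusted p = 0.0536).

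Glucose production and insulin signalling had 7 genes above 0, 12 below and a median of -0.11, which was 0.37 without high-fat diet replicate 1. Pck1, an early enzyme of glucose synthesis from lactate and amino acids, had 2285, 1969 and 1895 CPM with SCL and 2602, 1675 and 1139 CPM on the high-fat diet (log2 fold change 0.18, 95% interval -0.73 to 1.10). G6pc, which releases free glucose, had -0.46 (SE 0.60). Foxo1, an insulin-regulated transcription factor, had an unadjusted p of 0.0424 through 1 library. High-fat diet replicate 1 had 23.4 CPM and the other 5 compared libraries 1.26 to 3.56 CPM, and without it the log2 fold change went from -2.11 to -0.30 (unadjusted p = 0.67).

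Cytochrome P450 enzymes of families 1 to 3, with their receptors and reductase, had 16 of 23 genes above 0 and a median of 0.33, positive in 17 alternatives (0.06 to 0.48). Cyp2e1, the ethanol-oxidising enzyme of pericentral hepatocytes, had 3856, 3139 and 4410 CPM with SCL and 2877, 2571 and 2100 CPM on the high-fat diet. The groups did not overlap, and the log2 fold change was 0.60 (95% interval -0.17 to 1.36, unadjusted p = 0.115). Cyp2c12, known as a female-predominant enzyme in rats, was low at 24.7, 8.83 and 27.3 CPM against 5.23, 5.97 and 9.30 CPM. Its log2 fold change was 1.57 (SE 0.50, unadjusted p = 0.00949), and normal diet livers had 73.0, 26.3 and 33.5 CPM. Cyp3a23/3a1, an enzyme of drug breakdown, had 0.36 (SE 0.35).

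Antioxidant enzymes and targets of NRF2, the regulator of the response to oxidants, had 15 of 24 genes above 0 and a median of 0.16. Nqo1, a quinone reductase often used as a readout of NRF2, had 4.56, 1.26 and 38.0 CPM with SCL and 16.1, 7.77 and 1.74 CPM on the high-fat diet. SCL-treated replicate 3 was the highest of the 6 and replicate 2 the lowest, so the log2 fold change of 0.76 had an SE of 1.08. Gpx1, the main glutathione peroxidase, had 1247, 445 and 1991 CPM against 950, 971 and 412 CPM, and Hmox1, the heme oxygenase, had a log2 fold change of -0.15 (SE 0.31). Catalase (Cat) was even, with 0.21 (95% interval -0.53 to 0.95). Genes of the unfolded protein and integrated stress responses split into 11 above and 11 below, with a median of 0.02.

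Inflammatory genes had 12 of 21 values above 0 and a median of 0.10. Without the 2 libraries over 40% mitochondrial the median was -0.14 (4 of 21 above 0), and with limma-voom -0.20 (6 of 21). It was -0.14 (8 of 21) without SCL-treated replicate 2 and 0.30 (16 of 21) without high-fat diet replicate 2. Il1b, an early cytokine, had 7.08, 17.2 and 9.39 CPM with SCL and 4.97, 15.8 and 12.3 CPM on the high-fat diet (log2 fold change 0.02, 95% interval -0.96 to 1.01). Ccl2, which draws monocytes, was near 1 CPM, with a log2 fold change of 0.96 (SE 0.64). Socs3, which dampens cytokine signalling, had 4.76, 3.49 and 2.28 CPM with SCL and 1.26, 1.26 and 1.998 CPM on the high-fat diet, without overlap. Its log2 fold change was 1.23 (SE 0.46, unadjusted p = 0.0223), and the normal diet livers had 4.57, 8.24 and 3.76 CPM. Interferon response genes had 16 of 20 values above 0 with a median of 0.14, and Ifi27, an abundant member, had 0.26 (SE 0.37). Leaving out high-fat diet replicate 2, high-fat diet replicate 3 or SCL-treated replicate 3 left 10 of 20 above 0, with medians of -0.01, 0.02 and 0.002. Without SCL-treated replicate 1, 11 were above 0 (median 0.02). The median was 0.45 without high-fat diet replicate 1 and 0.42 without SCL-treated replicate 2.

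Acute-phase proteins, which the liver secretes in inflammation, had 16 of 18 values above 0 and a median of 0.36. Without SCL-treated replicate 3, 8 of the 18 were above 0 and the median was -0.04. Their summed level followed single libraries, with 87560, 43310 and 123600 CPM with SCL and 75940, 89240 and 46410 CPM on the high-fat diet. The lowest library of each group was the one with over 40% mitochondrial reads. Lcn2, an iron-trapping protein named here after its values were seen, had the highest log2 fold change of the list, 3.0 (SE 1.41, unadjusted p = 0.0573). SCL-treated replicate 3 held 136.9 CPM of it and the other 5 libraries 0.05 to 11.9 CPM, and without that library the log2 fold change was -0.04 (unadjusted p = 0.974).

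Extracellular matrix and stellate cell genes had 9 values above 0, 15 below and a median of -0.10. The median was 0.09 (15 of 24 above 0) without high-fat diet replicate 2. Without the 2 libraries over 40% mitochondrial it was -0.43 (3 of 24). Pdgfrb, a growth factor receptor of stellate cells, had 9.80, 13.4 and 8.78 CPM with SCL and 16.8, 15.8 and 17.3 CPM on the high-fat diet, without overlap (log2 fold change -0.64, SE 0.27, unadjusted p = 0.0393). Col1a1, the main fibrillar collagen of scars, had 8.03, 14.2 and 10.4 CPM against 9.10, 25.4 and 12.6 CPM. Tgfb1, a driver of scarring, had a log2 fold change of -0.25 (95% interval -0.98 to 0.49), and Fn1 (fibronectin) and Col3a1 had -0.15 (SE 0.44) and -0.23 (SE 0.38).

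Besides Ccnd1, the cell cycle list had no gene with an unadjusted p under 0.05. Of its 16 tested genes 9 were above 0 and 7 below, and Cdkn1a, a brake on division, had -0.27 (SE 0.33). Circadian clock genes had 6 values above 0, 10 below and a median of -0.23 (0.02 without high-fat diet replicate 1), with Clock at -0.24 (SE 0.27) and Nfil3 at 0.09 (SE 0.46).

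The 13 protein-coding transcripts of the mitochondrial genome had log2 fold changes from -0.61 (Mt-atp8) to 0.97 (Mt-nd4l), and the median SE in that list was 0.99. Mt-atp8 had few reads, 3.2e-05% to 0.000217% of those of each compared library. Mt-co1, a subunit of cytochrome oxidase, had 0.02 (SE 0.97). Nuclear-encoded genes of the respiratory chain had a median of 0.20 with 22 of 31 above 0, and Atp5b and Cox4i1, of the ATP synthase and cytochrome oxidase, had 0.17 (SE 0.32) and 0.26 (SE 0.38). Ribosomal protein genes had a median of 0.37 with 20 of 28 above 0, and Rplp0 had 0.53 (SE 0.37). The summed ribosomal level was 6098, 6491 and 7732 CPM with SCL and 3267, 7214 and 5537 CPM on the high-fat diet. Without high-fat diet replicate 1 the ribosomal median was 0.16 (17 of 28) and the respiratory chain median 0.07 (18 of 31). Without SCL-treated replicate 3 the latter was 0.06 (17 of 31). Both medians stayed above 0 in 17 alternatives. Both lists are rich in short genes, 14 of 31 and 17 of 28 under 1000 bases. Over all tested non-mitochondrial genes the median was 0.06 for the 1134 under 1000 bases and -0.17 for the 2521 over 4000 bases, and the part of length in the list medians was not tested.

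Amino acid catabolism and the urea cycle had 18 of 22 genes above 0 and a median of 0.29, positive in 17 alternatives (0.08 to 0.41). Bhmt and Cps1, the most abundant members, which remethylate homocysteine and start the urea cycle, had log2 fold changes of -0.01 (SE 0.48) and -0.08 (SE 0.61). Arg1 and Asl, later urea cycle enzymes named after their values were seen, were the members with non-overlapping groups. They were 2 of the 22, both with SCL higher, and 2.36% of all genes tested were of that kind. Arg1 had 725, 871 and 1158 CPM with SCL and 696, 608 and 478 CPM on the high-fat diet (log2 fold change 0.63, SE 0.33, unadjusted p = 0.0811). Asl had 602, 902 and 620 CPM against 276, 456 and 574 CPM (0.70, SE 0.36, unadjusted p = 0.0805).

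Genes that mark the zones of the liver lobule were read as well. Of 9 periportal genes 8 were above 0, with a median of 0.32, and of 8 pericentral genes 5 were above 0, with a median of 0.10. Without high-fat diet replicate 3 the periportal median was 0.02 (5 of 9 above 0) and the pericentral one -0.05 (4 of 8). The summed periportal level was 7414, 5053 and 8111 CPM with SCL and 8848, 5986 and 3122 CPM on the high-fat diet, so the groups overlapped. Among the pericentral genes, Oat was in the higher set given above. Axin2, a Wnt target of the same zone, had 6.67, 3.69 and 5.27 CPM with SCL and 9.25, 6.20 and 14.4 CPM on the high-fat diet (log2 fold change -0.93, SE 0.40, unadjusted p = 0.043). High-fat diet replicate 3 was the highest library, and without it the log2 fold change of Axin2 was -0.57 (unadjusted p = 0.195). Without the 2 libraries over 40% mitochondrial it was -0.38 (unadjusted p = 0.372), and with limma-voom -0.49 (unadjusted p = 0.222).

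**Figure D5:**
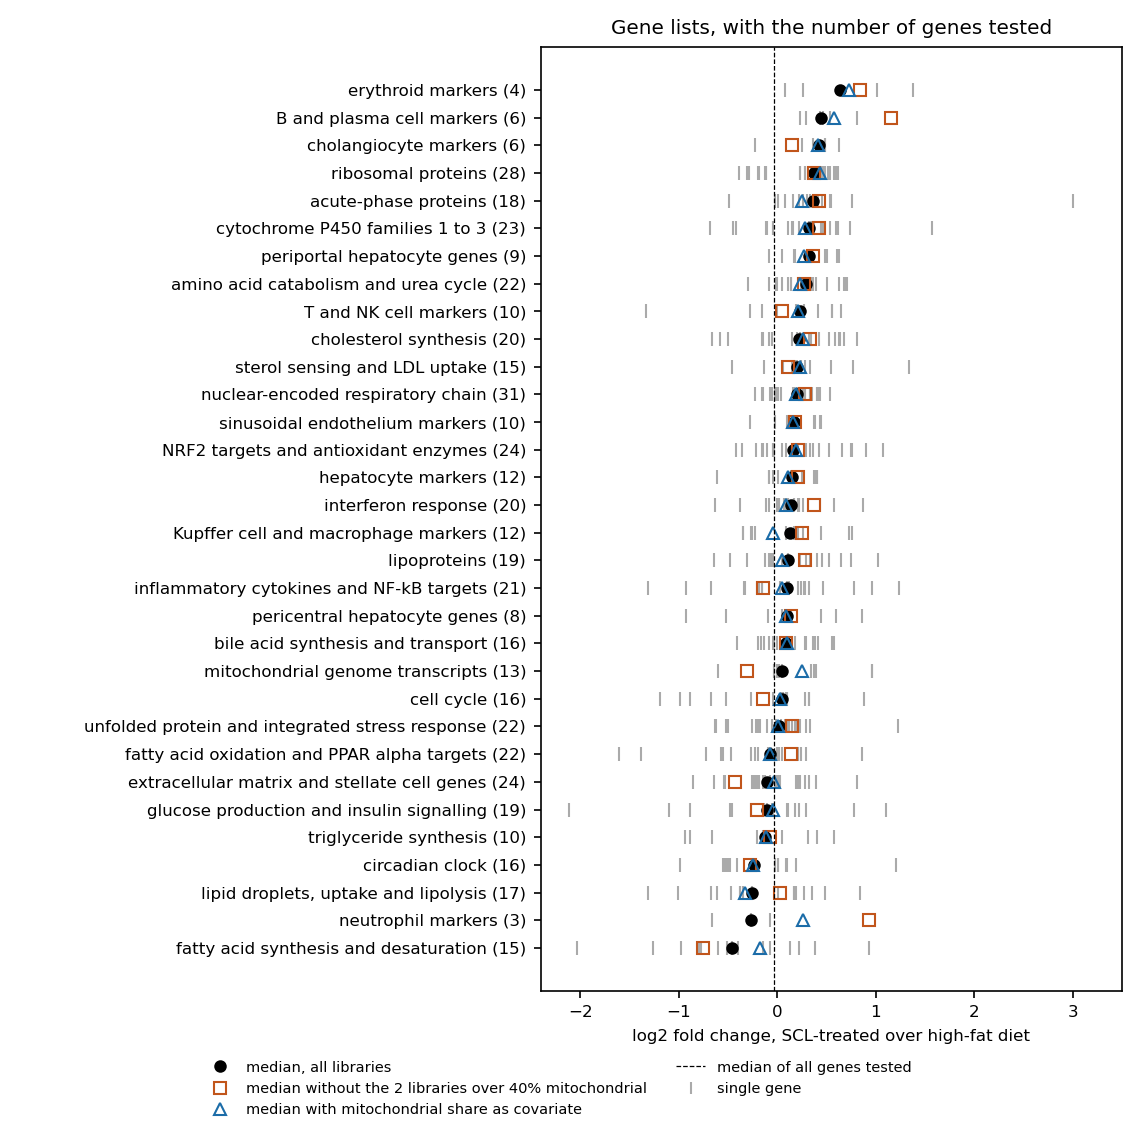
Median log2 fold change of SCL-treated over high-fat diet in each gene list, with the number of genes tested in brackets and grey ticks for single genes. Black dots use all libraries, squares leave out the 2 libraries over 40% mitochondrial, triangles adjust for the mitochondrial share, and the dashed line is the median of all genes (-0.03). Fatty acid synthesis lies lowest in the all-library values (-0.46), and neutrophil markers lie at -0.27 with all libraries and at 0.93 without the 2.

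Markers of the cell types of the liver varied among the libraries of both groups. In bulk tissue, fewer cells of a type and less RNA per cell cannot be told apart. Hepatocyte markers had 8 of 12 values above 0 and a median of 0.15, and Alb (albumin), the most abundant, had a log2 fold change of 0.38 (95% interval -1.04 to 1.79). Kupffer cell and macrophage markers had 7 of 12 above 0 and a median of 0.13. Clec4f, a Kupffer cell lectin, had 174, 66.9 and 273 CPM with SCL and 102, 154 and 52.2 CPM on the high-fat diet. The lowest value of each group was in the library with over 40% mitochondrial reads.

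B and plasma cell markers had 6 of 6 values above 0 and a median of 0.45, and their summed level was 218, 258 and 143 CPM with SCL and 42.8, 274 and 203 CPM on the high-fat diet. High-fat diet replicate 1 was low and the other 5 libraries overlapped. Erythroid markers had 4 of 4 above 0, with 938, 1226 and 361 CPM against 233, 515 and 1205 CPM. Sinusoidal endothelium had a median of 0.17 (8 of 10 above 0), cholangiocyte markers 0.42 (5 of 6), and T and NK cell markers 0.23 (6 of 10). The cholangiocyte median was -0.20 without SCL-treated replicate 2, and the T and NK cell median -0.01 without high-fat diet replicate 1. Neutrophil markers had 0 of 3 above 0, with a summed level of 6.84 to 12.38 CPM with SCL and 1.20, 8.87 and 30.8 CPM on the high-fat diet. Adipocyte and exocrine pancreas markers had 2 tested genes each, with summed levels of 12.2 to 41.3 and 8.36 to 52.9 CPM. The part of blood and immune cell RNA in the values of other genes was not tested.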

How the data were processed

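Per the labels' protocols, total RNA was taken up in Trizol and the NEBNext Ultra RNA kit was used for libraries. Per the file headers, the authors deposited read counts, a normalized signal (each count over its library's size factor), FPKM values, and their own log2 fold changes and p-values, which were not used. The submitters' processing notes name DESeq2 and the mouse build mm9. Since 92.4% of the gene symbols match rat RefSeq genes (GRCr8), that build was not taken as the one used, and no coordinates are given. What aligner, counter and strand setting were used is not given in the sources used here, so overlapping genes and close copies (cytochrome P450, globin, immunoglobulin and Rbm25-like genes) are uncertain.

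Counts of all 9 libraries were fitted together in edgeR 4.0.16 (R 4.3.3) on genes in both tables, with TMM scaling, filterByExpr at a minimum count of 10, a term for group alone and 6 residual degrees of freedom. The 254 genes in the SCL table alone took 0.00183% of any library's reads or less. High-fat diet counts differed between the tables for 0 shared genes, and no 2 libraries of a group agreed within sampling noise. Standard errors are the absolute log2 fold change over the square root of F. Gene lengths are those that the deposited counts and FPKM values imply. The depth of each library limits precision for genes with few reads. Alternatives used DESeq2 1.42.0, limma 3.58.1, other scalings, filters and sets of libraries. Steps were tested on simulated counts. Tables and plots used Python 3.11.15, pandas 2.3.3 and matplotlib 3.10.9.

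The comparison, the 34 gene lists and the rule for named genes were chosen with earlier results of these data known. The rule takes the 10 smallest unadjusted p-values in each direction among genes with a mean of at least 1 log2 CPM, non-overlapping groups and no predicted-locus name. From each list it takes the 2 most abundant members and up to 2 with an unadjusted p under 0.05, and it adds fixed genes of lipid, bile acid, glucose, oxidant and inflammatory biology. Other genes are said to have been named after their values were seen. Some genes that the rule takes are not reported here.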

Additional observations from a re-analysis of the deposited data

How the results depend on the processing

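No gene was called in edgeR under any alternative scaling, filter, covariate or set of libraries, with adjusted p no lower than 0.21 in the fits that left out 1 library, nor at thresholds of 0.01 or 0.1. DESeq2 called 1 gene. The counts at an unadjusted p under 0.05, against 74 higher and 161 lower, changed with the tool and samples. DESeq2 gave 112 higher, limma-voom 384 higher and 542 lower, library totals alone 25 and 295, the 6 compared libraries alone 30 and 97, and the mitochondrial share as covariate 209 and 353. Without the 2 libraries over 40% mitochondrial they were 173 and 307, and 3430 genes did not overlap, with 2 libraries a group in place of 3. Leaving out 1 library at a time gave 48 to 311 higher, 72 to 519 lower, 595 to 2605 not overlapping and 0 called. The counts moved most without SCL-treated replicate 2 (311, 519 and 2605), high-fat diet replicate 1 (301, 250 and 2094) and high-fat diet replicate 2 (169, 325 and 1789). Without SCL-treated replicate 3, 60 were higher, 72 lower and 1038 not overlapping, and without normal diet replicate 2, 48 were higher and 106 lower. Without SCL-treated replicate 1, 1459 did not overlap, and without high-fat diet replicate 3, 1182. The difference in mitochondrial share ran from -13.6 to 10.5 percentage points in such fits and was -0.31 on FPKM values. With a replicate block 71 genes were higher, 182 lower and 0 called. Same-numbered libraries deviated together with correlations of 0.34, 0.08 and -0.35. Across all pairs of an SCL-treated and a high-fat diet library, the correlations ran from -0.42 to 0.46. With 3 libraries per group, such correlations cannot tell whether same-numbered libraries were paired. Library totals alone moved the median of all genes from -0.03 to -0.19. Of the 97 named genes not chosen for non-overlapping groups, 38 kept their sign in all alternatives. Of the 34 list medians 9 did in their alternatives, which left out DESeq2 and limma-voom. The cause of these changes was not tested, and neither was the part of group size in the counts not overlapping.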

Other observations

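Some genes with few reads had large differences and fell under the level set for named genes, so they were picked after their values were seen. Ndnf, a secreted factor of nerve and vessel cells, had 51, 7 and 28 reads in SCL-treated replicates 1, 2 and 3, against 3, 0 and 0 reads on the high-fat diet and 18, 4 and 4 on the normal diet. Gcnt3, a mucin glycosyltransferase, had 26, 33 and 10 reads against 4, 1 and 5, and 21, 21 and 33 on the normal diet. Zswim8, a part of a ubiquitin ligase that degrades microRNA complexes, had 0 reads in all 3 treated libraries, 38, 8 and 5 on the high-fat diet, and 18, 16 and 3 on the normal diet. Reps2, an adaptor in receptor uptake, had 3, 0 and 2 reads against 50, 8 and 16. None of these passed after adjustment in edgeR.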
